A study of Mus musculus with 6 samples.

Results

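The genes described here encode 8 proteins with which macrophages recognize and take up apoptotic cells. They are the receptor tyrosine kinases *Mertk* and *Axl*, their ligands *Gas6* and *Pros1*, the bridging protein *Mfge8*, the receptors *Stab1* and *Cd300a*, and the engulfment adaptor *Elmo1*. They were chosen by gene symbol, each of the 8 symbols matched 1 of the 19309 genes in the count table, and all 8 were among the 13785 genes with enough counts to be tested.

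Removal of apoptotic cells, or efferocytosis, starts when a macrophage senses phosphatidylserine on the surface of a dying cell. Bridging proteins such as Gas6, protein S (encoded by *Pros1*) and Mfge8 bind the exposed lipid and connect it to TAM kinases (Tyro3, Axl and Mertk) or to integrins, whereas other receptors bind the lipid directly. Adaptors including Elmo1 then drive the Rac-dependent rearrangement of actin that closes the phagosome. In macrophages this program is associated with the resolution of inflammation.

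RNA was sequenced from bone marrow-derived macrophages of 3 mice lacking the soluble epoxide hydrolase (sEH-/-) and 3 wild-type mice, with 1 library per mouse. The enzyme, encoded by *Ephx2*, converts epoxides of polyunsaturated fatty acids to diols. Marrow was from mice aged 8 to 10 weeks according to the methods, which describe littermates and mostly females, whereas the sample labels give neither age nor sex. Per the labels, all cells were differentiated for 7 days with M-CSF and GM-CSF, exposed for 24 h to LPS and IFN-γ (M1) and repolarized for 48 h with TGF-β1 to M2c macrophages. In the methods, exposure to LPS and IFN-γ lasted 12 h and TGF-β1 was present for 24 h or 48 h. They name a strain in which *Ephx2* deletion is combined with a Rosa26 Cre allele, a locus active in most tissues, so that cells other than macrophages, including their marrow progenitors, also lacked the gene. No apoptotic cells were part of the culture as described, and all 6 libraries came from the repolarized state, so that the values are transcript levels and not uptake.

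The libraries held between 4400197 and 6096440 counts, a 1.39-fold range. *Ephx2* counts were 4, 2 and 1 in sEH-/- cells against 26, 49 and 57 in wild-type cells, as the labels have it (edgeR adjusted p = 0.00418, log2 fold change -4.05, SE 0.43). The 10 macrophage markers examined were all tested and summed to between 2720 and 3376 CPM in sEH-/- and between 2434 and 3089 CPM in wild-type libraries, where CPM are counts scaled to a common, TMM-normalized library size. Of 8 neutrophil markers, 6 were in the table and 1 (*S100a8*) was tested, with a summed level of 28.2 to 31.9 CPM in sEH-/- and 17.4 to 21.2 CPM in wild-type libraries. The corresponding sums were 27.7 to 58.2 and 42.2 to 59.5 CPM for dendritic cell markers, with *Cd209a* at 0, and 6.49 to 17.2 and 4.18 to 59.9 CPM for stromal cell markers. The 1 erythroid marker in the table was at 0.605 to 1.97 CPM, and none of 7 lymphocyte markers was among the listed genes. The part of other cells in the values below was not tested.

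Between genotypes, *Gas6* was 1.4-fold lower in sEH-/- macrophages, and it was the only one of the 8 genes with an adjusted p below 0.05. *Stab1* (1.37-fold) and *Elmo1* (1.23-fold) were higher in each of the 3 sEH-/- libraries than in any wild-type library, but their adjusted p-values of 0.0664 and 0.0737 did not pass the threshold. *Mertk*, *Axl*, *Mfge8*, *Pros1* and *Cd300a* overlapped between the genotypes. A gene was called differentially expressed when edgeR's adjusted p was below 0.05 and the change exceeded 1.5-fold, and 0 of the 8 genes were called, where 2.61% of all tested genes were, 1.51% higher and 1.1% lower in sEH-/- cells. DESeq2 and limma-voom also called 0 of the 8, where they called 3.5% and 2.23% of all genes they tested. An unadjusted p below 0.05 in edgeR was found for 3 of the 8 genes, compared with 23.4% of all tested genes. By adjusted p alone, without the fold threshold, 1 of 8 genes passed, compared with 4.01% of all tested genes, 2.39% higher and 1.62% lower in sEH-/- cells. The genotypes did not overlap for 3 of 8 genes, or 37.5%, compared with 26.3% of all tested genes. The log2 fold changes, given throughout as sEH-/- over wild-type, were above 0 for 5 genes and below 0 for 3, with a median of 0.13 against -0.001 over all tested genes.

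**Figure D1:**
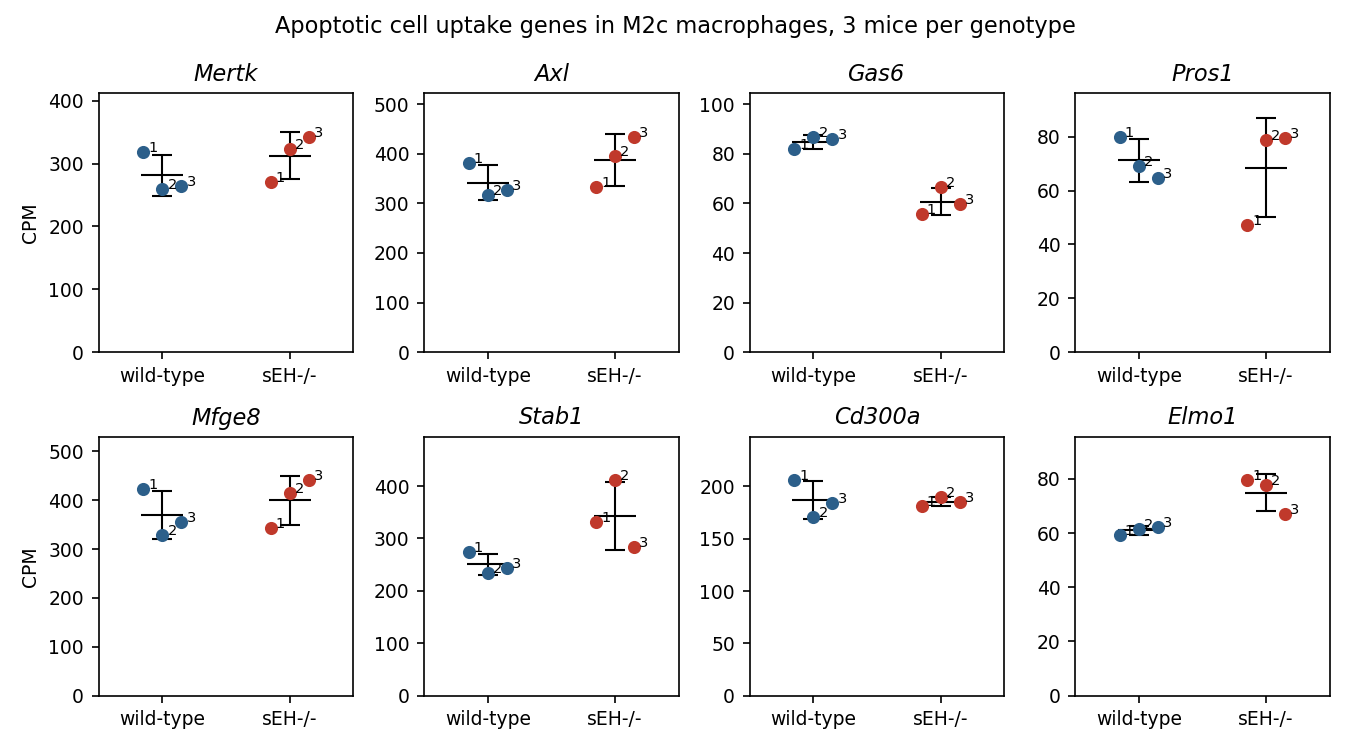
Level of each of the 8 genes in CPM (vertical axis, from 0) in 3 wild-type (blue) and 3 sEH-/- (red) libraries, numbered by replicate, with the mean (long line) and SD (error bars). The *Gas6* points of the sEH-/- libraries lie at 55.9 to 66.8 CPM, below the wild-type points at 81.8 to 87.0 CPM, the *Stab1* and *Elmo1* points lie above those of the wild-type, and the other 5 genes overlap.

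The promoters of the 3 genes whose libraries did not overlap are shown because *Gas6* was the gene with an adjusted p below 0.05 and *Stab1* and *Elmo1* had the next lowest values. A further reason is that M2c cells were made with TGF-β1, a cytokine that acts through Smad factors. In the paper's murine M1 macrophages, a Smad2 decoy blocked the rise of sEH with TGF-β1, whereas an Sp1 decoy did not. Each sequence is 250 bases long, ends just before the first RefSeq transcription start and was taken from RefSeq (GRCm38.p6, the assembly also known as mm10), which held a start for all 8 genes. It is written 5′ to 3′ in the direction of transcription. Capitals mark matches, on either strand, to a GC box bound by Sp1 (GGGCGG), to the core of the site of the macrophage factor PU.1 (GAGGAA) or to the CAGA box bound by Smad3 (CAGACA). The 3 motifs share no overlapping match in these windows. The shorter Smad element that the paper marks in the human sEH promoter (AGAC or GTCT) was not scored.
Gas6 promoter (chr8:13494536-13494785, minus strand): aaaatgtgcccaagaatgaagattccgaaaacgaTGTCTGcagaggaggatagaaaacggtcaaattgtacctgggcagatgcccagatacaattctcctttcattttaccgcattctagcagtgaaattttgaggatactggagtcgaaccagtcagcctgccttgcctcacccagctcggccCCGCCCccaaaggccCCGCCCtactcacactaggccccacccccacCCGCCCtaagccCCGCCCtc
Stab1 promoter (chr14:31168642-31168891, minus strand): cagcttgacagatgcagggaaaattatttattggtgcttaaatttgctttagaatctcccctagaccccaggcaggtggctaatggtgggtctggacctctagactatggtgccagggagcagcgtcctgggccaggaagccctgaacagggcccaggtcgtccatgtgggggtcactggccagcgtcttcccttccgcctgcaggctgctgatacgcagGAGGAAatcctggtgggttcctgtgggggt
Elmo1 promoter (chr13:20090257-20090506, plus strand): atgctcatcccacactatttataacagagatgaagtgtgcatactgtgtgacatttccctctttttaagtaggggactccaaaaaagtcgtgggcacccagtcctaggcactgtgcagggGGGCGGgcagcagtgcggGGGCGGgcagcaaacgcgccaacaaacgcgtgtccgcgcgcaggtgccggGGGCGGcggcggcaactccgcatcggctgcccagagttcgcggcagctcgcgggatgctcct
The *Gas6* window held 4 GC boxes, as many as that of *Mfge8* and fewer than the 5 of *Pros1*, and 1 CAGA box, the *Elmo1* window 3 GC boxes, and the *Stab1* window 1 PU.1 core and no GC box. Of 32851 mouse promoter windows of the same length, 32.7% held a GC box, 23.3% a PU.1 core and 17.1% a CAGA box. A match describes the letters in the window and no binding was measured.

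*Mertk* and *Axl*, the TAM kinases through which macrophages engulf apoptotic cells in resting and in inflamed tissue, respectively, were among the more abundant transcripts of the group. *Mertk* (ENSMUSG00000014361) lies on the plus strand of mm10 chr2:128698956-128802894 and had 270, 324 and 343 CPM in the sEH-/- libraries and 319, 260 and 265 CPM in the wild-type libraries, or 312 ± 37.7 and 281 ± 32.9 CPM (SD, n = 3 each). The wild-type library of replicate 1 lay within the range of the sEH-/- libraries, and sEH-/- replicate 1 lay among the wild-type libraries. The log2 fold change was 0.15 (SE 0.11, edgeR adjusted p = 0.449), with a 95% interval of 0.938-fold to 1.32-fold. *Axl* (ENSMUSG00000002602, minus strand, chr7:25757273-25788705) had 332, 395 and 434 CPM in sEH-/- and 381, 316 and 327 CPM in wild-type libraries. Again the replicate 1 library of each genotype lay within the range of the other genotype, and the log2 fold change was 0.18 (SE 0.11, edgeR adjusted p = 0.374, interval 0.953-fold to 1.35-fold). The interval of either gene leaves out a 1.5-fold difference in CPM. Raw counts varied 1.11-fold for *Mertk* and 1.13-fold for *Axl* over libraries whose totals differed 1.39-fold. Whether counts this flat would show a 1.5-fold difference in transcript level was not tested. Because these are bulk samples, fewer cells with a transcript and less of it per cell cannot be told apart, for these genes or for those below.

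The ratio of the TAM kinases to each other was compared next, with the limit that raw counts of both genes were nearly constant over the libraries, which by itself holds the ratio steady. Per exonic length, the ratio of *Axl* to *Mertk* was 1.06, 1.05 and 1.09 in sEH-/- against 1.03, 1.05 and 1.07 in wild-type libraries. Its log2 value differed between the genotypes by 0.025 (exact two-sided permutation test, p = 0.4, where 3 against 3 libraries cannot go below 0.1). *Tyro3*, the third TAM kinase, was a minor transcript and is described here although it was singled out after its values were seen. It had 6.84, 3.63 and 7.19 CPM in sEH-/- and 9.23, 16.1 and 12.9 CPM in wild-type libraries, so that every sEH-/- library lay below every wild-type library. Its log2 fold change was -1.12 (SE 0.29), which missed the threshold in edgeR (adjusted p = 0.0583) and passed it in DESeq2 (adjusted p = 0.0254). It passed in 3 of 17 alternatives, and the adjusted p was 0.181 without sEH-/- replicate 2 and 0.27 and 0.194 when wild-type replicates 2 and 3, respectively, were left out.

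*Gas6*, the vitamin K-dependent ligand that activates all TAM kinases, was the gene of the group with the largest decrease in sEH-/- cells. *Gas6* (ENSMUSG00000031451, minus strand, chr8:13465374-13494490) had raw counts of 327, 331 and 257 in sEH-/- against 372, 536 and 480 in wild-type cells. This corresponds to 55.9, 66.8 and 59.6 CPM against 81.8, 87.0 and 86.0 CPM. All sEH-/- libraries lay below all wild-type libraries, as did 14.5% of all tested genes. The means were 60.8 ± 5.52 and 84.9 ± 2.77 CPM (SD, n = 3 each), the log2 fold change was -0.49 (SE 0.08), and the adjusted p was 0.0217 in edgeR, which is below 0.05 for 1.62% of tested genes in this direction. The 95% interval of sEH-/- over wild-type was 0.627-fold to 0.814-fold, and thus included the 1.5-fold threshold for a call. The adjusted p was 0.0058 with DESeq2 and 0.0285 with limma-voom, but 0.116 and 0.123 when wild-type replicates 2 and 3, respectively, were left out.

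*Pros1*, which encodes protein S, an anticoagulant and the ligand of Tyro3 and Mertk, overlapped between the genotypes. *Pros1* (ENSMUSG00000022912, plus strand, chr16:62854307-62929346) had 47.2, 78.7 and 79.5 CPM in sEH-/- and 80.0, 69.1 and 64.5 CPM in wild-type libraries. The sEH-/- replicate 1 library was the lowest of the 6, and the other two sEH-/- libraries lay within the wild-type range. The log2 fold change was -0.06 (SE 0.17, edgeR adjusted p = 0.865, interval 0.732-fold to 1.25-fold), and it was 0.16 when sEH-/- replicate 1 and 0.02 when wild-type replicate 1 was left out, so that no direction can be given. Per exonic length, the ratio of *Gas6* to *Pros1* was 1.9, 1.36 and 1.2 in sEH-/- against 1.64, 2.02 and 2.14 in wild-type libraries. The ranges overlapped, and the log2 ratio was lower by 0.395 in sEH-/- cells, a difference of -0.395 with p = 0.2 (exact two-sided permutation test, smallest possible p 0.1).

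*Mfge8*, which encodes a secreted protein linking phosphatidylserine to αv integrins, had the highest mean CPM of the 8 genes. *Mfge8* (ENSMUSG00000030605, minus strand, chr7:79133768-79149060) had 343, 415 and 441 CPM in sEH-/- and 424, 330 and 356 CPM in wild-type libraries, with means of 400.0 ± 50.8 and 370.0 ± 48.6 CPM (SD, n = 3 each). Libraries of the genotypes alternated, and the log2 fold change was 0.11 (SE 0.12, edgeR adjusted p = 0.62, interval 0.9-fold to 1.3-fold). Of the αv integrin chains through which Mfge8 is bound, *Itgav* (αv) and *Itgb5* (β5) had log2 fold changes of 0.15 (SE 0.08, edgeR adjusted p = 0.323) and 0.19 (SE 0.11, edgeR adjusted p = 0.342), both named after their values were seen. *Itgb3*, the β3 partner of αv, was called lower in sEH-/- cells, with 45.0, 26.0 and 49.2 CPM against 73.6, 155 and 100 CPM (log2 fold change -1.47, SE 0.27, edgeR adjusted p = 0.0248). All 3 sEH-/- libraries lay below the wild-type, and the adjusted p was 0.0612 without sEH-/- replicate 2, 0.0861 and 0.117 without wild-type replicates 2 and 3, respectively, and 0.0511 with the library total as a covariate.

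*Stab1*, a scavenger receptor of macrophages and sinusoidal endothelium that binds phosphatidylserine, was the gene of the group with the largest log2 fold change above 0. *Stab1* (ENSMUSG00000042286, minus strand, chr14:31139013-31168641) had 332, 411 and 283 CPM in sEH-/- and 274, 234 and 244 CPM in wild-type libraries. The lowest sEH-/- library, replicate 3, was still above the highest wild-type library, and 11.8% of all tested genes did not overlap in this direction. The means were 342 ± 64.6 and 251 ± 20.8 CPM (SD, n = 3 each), with a log2 fold change of 0.45 (SE 0.13, interval 1.13-fold to 1.66-fold). In edgeR the adjusted p was 0.0664. The adjusted p was 0.00456 with DESeq2, 0.0422 when genes with low counts were kept and 0.0246 without sEH-/- replicate 3, and it was above 0.05 in the other 14 of 17 alternatives, among them 0.113 with the replicate block, 0.207 without sEH-/- replicate 2, and 0.271 and 0.218 when wild-type replicates 2 and 3, respectively, were left out. *Stab1* shares chromosome 14 with *Ephx2*, at a distance of 34.9 Mb, and whether sequence linked to the deleted allele contributes was not tested.

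*Cd300a*, an inhibitory receptor for phosphatidylserine and phosphatidylethanolamine, was the gene with the smallest difference. *Cd300a* (ENSMUSG00000034652, plus strand, chr11:114890041-114904654) had 182, 190 and 185 CPM in sEH-/- and 206, 171 and 184 CPM in wild-type libraries, or 186 ± 4.24 and 187 ± 17.7 CPM (SD, n = 3 each). The sEH-/- libraries lay inside the wild-type range, and the 95% interval of the difference was 0.879-fold to 1.12-fold (log2 fold change -0.01, SE 0.08, edgeR adjusted p = 0.959).

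*Elmo1*, whose protein pairs with Dock family exchange factors to activate Rac during engulfment, had few counts for its length. *Elmo1* (ENSMUSG00000041112, plus strand, chr13:20090596-20608353) had raw counts of 465, 386 and 289 in sEH-/- against 269, 380 and 347 in wild-type libraries, which corresponds to 79.6, 77.9 and 67.0 CPM against 59.1, 61.7 and 62.2 CPM. The wild-type libraries lay close together and below each sEH-/- library. The means were 74.8 ± 6.81 and 61.0 ± 1.63 CPM (SD, n = 3 each), and the log2 fold change was 0.30 (SE 0.09, interval 1.08-fold to 1.4-fold). In edgeR the adjusted p was 0.0737. The adjusted p was 0.0301 without sEH-/- replicate 3 and between 0.0615 and 0.256 in the other 16 alternatives, with the highest value without wild-type replicate 2.

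**Figure D2:**
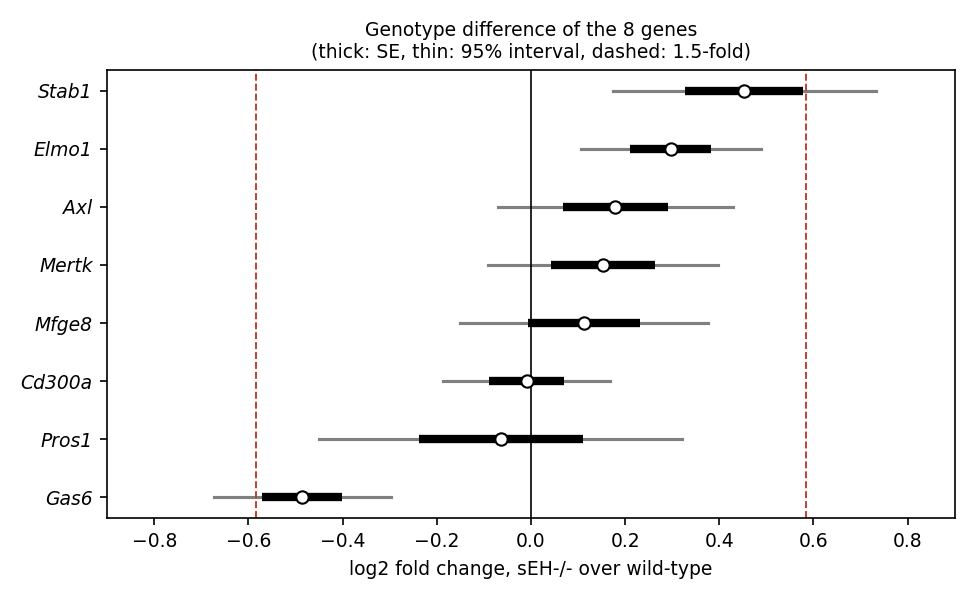
Log2 fold change of the 8 genes, sEH-/- over wild-type (horizontal axis), from edgeR with the SE (thick bar) and the 95% interval (thin bar). The dashed lines mark a 1.5-fold difference, and the intervals of *Gas6* (-0.67 to -0.30), *Stab1* (0.17 to 0.73) and *Elmo1* (0.11 to 0.49) leave out 0, whereas no point lies beyond a dashed line.

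Levels of different genes were compared per kilobase of exonic sequence. This length merges all annotated exons of a gene (12580 bases for *Elmo1*) and can exceed that of a single transcript, which lowers the value. In wild-type cells the order was *Mfge8* (78.8 ± 10.3 CPM per kb, SD, n = 3), *Axl* (67.9 ± 6.92), *Mertk* (64.8 ± 7.59), *Cd300a* (39.5 ± 3.75), *Gas6* (33.3 ± 1.09), *Stab1* (24.4 ± 2.02), *Pros1* (17.4 ± 1.95) and *Elmo1* (4.85 ± 0.13). Neighbours among the first 3 genes overlapped between libraries, and each later neighbour pair did not. In sEH-/- cells the means of *Stab1* (33.3 ± 6.28 CPM per kb) and *Gas6* (23.9 ± 2.17) stood in the opposite order, with *Stab1* at 27.5 to 40.0 and *Gas6* at 22.0 to 26.2 CPM per kb. The other 6 genes kept their order among themselves. *Stab1* and *Cd300a* (38.3 to 40.1 CPM per kb) then overlapped as neighbours.

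Counts of *Mfge8*, *Mertk* and *Axl* hardly followed the depth of the libraries. *Mfge8* had raw counts of 2004, 2055 and 1902 in sEH-/- against 1927, 2031 and 1985 in wild-type libraries, a 1.08-fold range over libraries whose totals differed 1.39-fold. Its CPM values ran in exactly the reverse order of the library totals. *Mertk* counts stayed between 1451 and 1605 (1.11-fold) and *Axl* counts between 1735 and 1956 (1.13-fold). Fitted over the 6 libraries with genotype as a term, the slope of log2 count on log2 total, which is 1 for counts in proportion to the total, was 0.28 for *Mertk*, 0.27 for *Axl*, 0.18 for *Mfge8* and 0.73 for *Cd300a*. It was 1.09 for *Gas6*, 1.08 for *Stab1*, which had as many counts as *Mertk* (means of 1542 and 1532), 1.49 for *Elmo1* and -0.15 for *Pros1*, where sEH-/- replicate 1 combined a high total with the fewest counts.

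Over all tested genes, the median slope was lower where there were more counts per exonic base. *Mertk*, *Axl* and *Mfge8* had 0.353, 0.374 and 0.423 counts per exonic base, averaged over the libraries, and *Gas6* and *Stab1* 0.151 and 0.15. The median slope was 1.14 over all genes, 1.23 for the 4702 genes with 0.03 to 0.1 counts per base, 0.72 for the 1429 genes with 0.2 to 0.5 and 0.29 for the 92 genes with 0.5 to 1. *Mertk*, *Axl* and *Mfge8* thus lay below the median of the genes with 0.2 to 0.5 counts per base, which is a wide bin. *Pros1*, with 0.088 counts per base, likewise lay below the median of its bin. Low slopes at such densities were not particular to these genes. Among the clearance genes described below, *Lrp1*, *Abca1* and *Thbs1* had slopes of 0.56, 0.34 and 0.14 at 0.39, 0.426 and 0.43 counts per base. The authors removed duplicate reads before counting, and the part of this step in the flat counts was not tested. With the library total (log scale) as a covariate, the log2 fold changes were 0.08 for *Mertk*, 0.10 for *Axl*, 0.03 for *Mfge8* and -0.49 for *Gas6* (edgeR adjusted p = 0.0402), and after a correction assuming at most 1 count per exonic base they were 0.17, 0.21, 0.12 and -0.53, respectively.

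**Figure D3:**
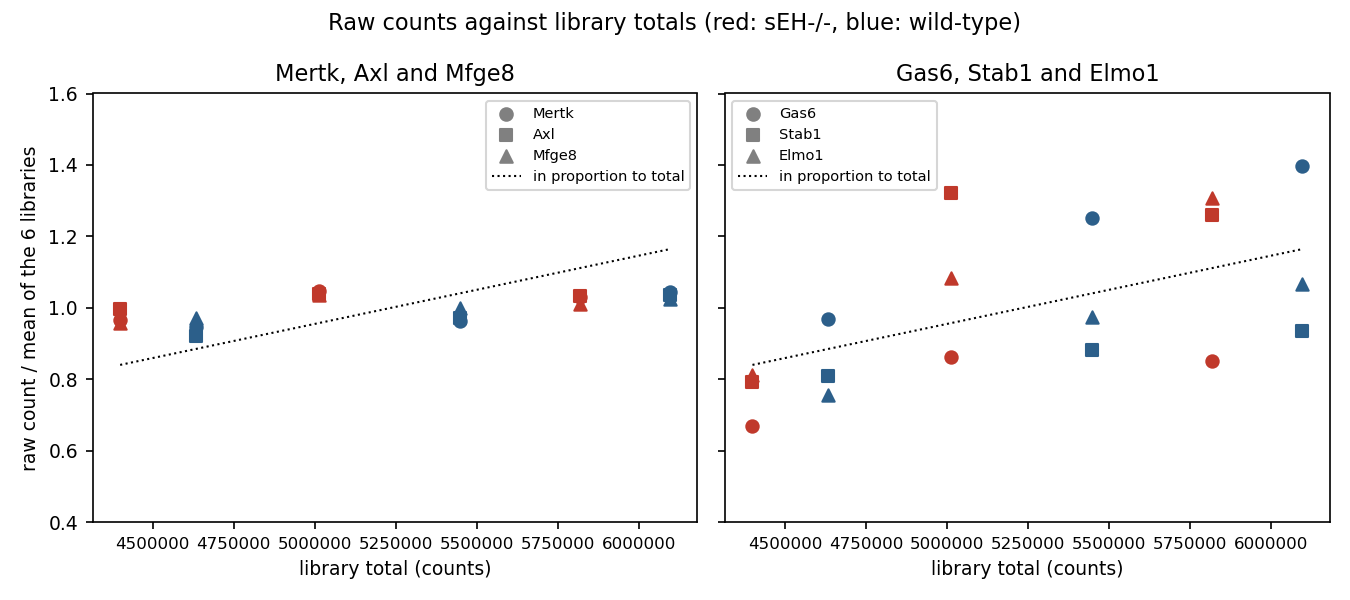
Raw count of a gene divided by its mean over the 6 libraries (vertical axis) against the library total in counts (horizontal axis), in sEH-/- (red) and wild-type (blue) libraries. *Mertk*, *Axl* and *Mfge8* (left) stay near 1 across a 1.39-fold range of totals, whereas *Gas6*, *Stab1* and *Elmo1* (right) spread more widely, and the dotted line marks counts in proportion to the total.

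The genes whose profile over the 6 libraries was most like that of *Stab1*, by the root mean square difference of centred log2 CPM among 10276 genes averaging 50 counts or more, were *Pmepa1* (0.0448), *Klhdc4* (0.0514) and *Nt5c3* (0.0547). *Pmepa1*, an inhibitor of TGF-β signaling that TGF-β itself induces, had 114, 139 and 104 CPM in sEH-/- and 91.2, 80.6 and 86.4 CPM in wild-type libraries, with the highest value in sEH-/- replicate 2 as for *Stab1*. The profile of *Gas6* was most like those of *Ank2* (0.0646), *Pold2* (0.0697) and *Setd6* (0.0723). These distances describe 6 libraries and carry no test.

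Other genes of apoptotic cell clearance were examined in 9 lists with 116 genes, of which 110 were in the table and 104 were tested. Of these, 3 were called higher and 2 lower in sEH-/- cells, or 4.81% in all against 2.61% of all tested genes. The median log2 fold change was 0.118, with 73 genes above and 31 below 0. Over all tested genes the median was -0.001, and 49.8% were above 0. By counts per exonic base, the median over all tested genes was -0.026 at 0.03 to 0.1, 0.014 at 0.1 to 0.2 and 0.05 at 0.2 to 0.5. The part of count density in the values of the lists was not tested. The 5 called genes were *Thbs1*, *S1pr1* and *Cx3cr1* (higher) and *Itgb3* and *Pparg* (lower). Leaving out either wild-type replicate 2 or wild-type replicate 3, edgeR called 0 of the 104 genes, and 25 and 6, respectively, of all genes. With all libraries, 39 of the 104 had an unadjusted p below 0.05, where 23.4% of all tested genes did, and DESeq2 called 7 and limma-voom 4, where they called 3.5% and 2.23% of all genes.

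Among other bridging and opsonizing proteins, *Thbs1* was called higher and the other 12 of 13 tested genes were not called. *Thbs1* encodes thrombospondin 1, which links apoptotic cells to CD36 and αv integrins and activates latent TGF-β. It had 675, 655 and 752 CPM in sEH-/- and 429, 288 and 270 CPM in wild-type libraries, a gap larger than the spread within either genotype (log2 fold change 1.08, SE 0.16, edgeR adjusted p = 0.0137). The adjusted p was 0.0744 and 0.0939 when wild-type replicates 2 and 3, respectively, were left out. Complement *C3*, which opsonizes dying cells, had 480, 595 and 719 CPM in sEH-/- and 463, 371 and 368 CPM in wild-type libraries, without overlap (log2 fold change 0.58, SE 0.15, edgeR adjusted p = 0.0549). For *C3* the adjusted p was below 0.05 in 7 of 17 alternatives, among them DESeq2 (0.000339). In edgeR it was 0.242 and 0.204 when wild-type replicates 2 and 3, respectively, were left out. Calreticulin (*Calr*), an eat-me signal, had a log2 fold change of -0.03 (SE 0.09, edgeR adjusted p = 0.877). The list had 11 genes above and 2 below 0, with a median of 0.293.

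Find-me signal receptors, which guide phagocytes to apoptotic cells, had 2 of 5 genes called higher and 3 not called. *Cx3cr1*, the receptor of the chemokine fractalkine released by dying cells, had 13.0, 38.5 and 22.7 CPM in sEH-/- and 4.84, 4.38 and 5.38 CPM in wild-type libraries. All sEH-/- libraries lay above the wild-type libraries and over a wider range (log2 fold change 2.34, SE 0.37, edgeR adjusted p = 0.0171). *S1pr1*, a receptor of sphingosine 1-phosphate, had 157, 165 and 108 CPM in sEH-/- and 94.3, 67.2 and 76.9 CPM in wild-type libraries (log2 fold change 0.87, SE 0.16, edgeR adjusted p = 0.0247). The adjusted p of *Cx3cr1* was 0.0861 and that of *S1pr1* 0.121 without wild-type replicate 2, and they were 0.108 and 0.133 without wild-type replicate 3. *S1pr1* was at 0.0612 without sEH-/- replicate 2 and at 0.0509 with the library total as a covariate. The nucleotide receptors *P2ry6* and *P2ry2* had log2 fold changes of 0.08 (SE 0.09) and -0.28 (SE 0.09, edgeR adjusted p = 0.108).

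Other uptake receptors had 1 of 15 tested genes called, *Itgb3*, with 10 genes above and 5 below 0 and a median of 0.133. The most abundant of them were *Lrp1*, a receptor that binds calreticulin, at 1330, 1358 and 1497 CPM in sEH-/- and 1482, 1268 and 1068 CPM in wild-type libraries, *Itgb2*, the β chain of complement receptor 3, and *Cd36*, the thrombospondin and oxidized lipid receptor. Their log2 fold changes were 0.13 (SE 0.13), 0.12 (SE 0.12) and 0.07 (SE 0.12), with overlap between the genotypes. *Cd14*, a receptor for LPS and for apoptotic cells, had an adjusted p of 0.0288 at a log2 fold change of 0.50 (SE 0.10), which is short of 1.5-fold.

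**Figure D4:**
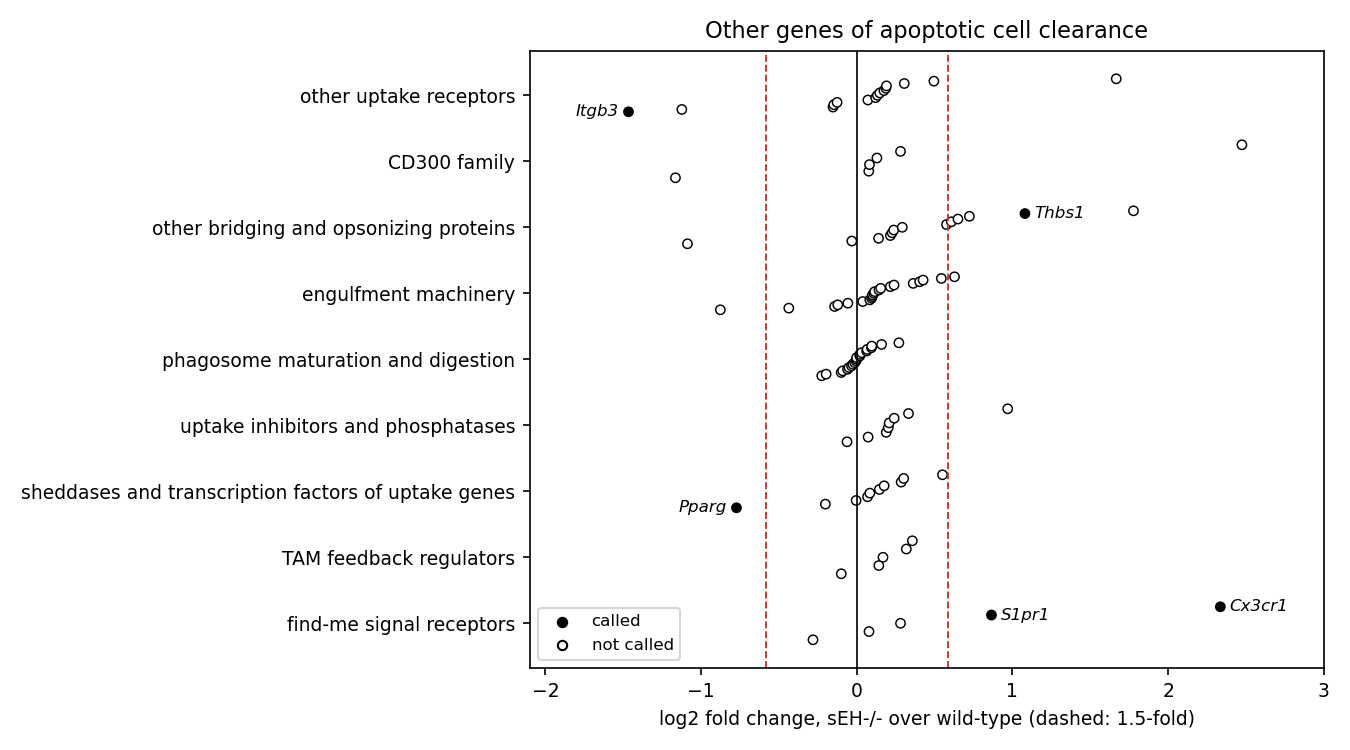
Log2 fold change, sEH-/- over wild-type (horizontal axis), of the 104 tested genes in 9 lists of apoptotic cell clearance (vertical axis), with called genes filled and named and dashed lines at 1.5-fold. *Thbs1*, *S1pr1* and *Cx3cr1* lie to the right and *Itgb3* and *Pparg* to the left, and the 21 genes of phagosome maturation and digestion lie close to 0.

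The engulfment machinery, which contains the partners of Elmo1, had 0 of 21 tested genes called by edgeR, DESeq2 or limma-voom and 9 with an unadjusted p below 0.05, which 23.4% of all tested genes had. It had 16 genes above and 5 below 0, with a median of 0.11. The Rac exchange factor *Dock2* had 280, 321 and 270 CPM in sEH-/- and 257, 204 and 198 CPM in wild-type libraries, without overlap (log2 fold change 0.40, SE 0.11, edgeR adjusted p = 0.0641). The lipid transporter *Abca1* (0.36, SE 0.14) and the transglutaminase *Tgm2* (0.12, SE 0.12) overlapped, with edgeR adjusted p-values of 0.154 and 0.622. Below the fold threshold, *Abca7* (0.54, SE 0.09, edgeR adjusted p = 0.017) and *Dock5* (0.43, SE 0.08, edgeR adjusted p = 0.0287) were higher and the focal adhesion kinase gene *Ptk2* (-0.44, SE 0.08, edgeR adjusted p = 0.0276) was lower in sEH-/- cells. These 3 genes, like *Cd14*, are named because they were the genes of the lists that passed the adjusted p and not the fold threshold, after their values were seen.

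Of the 10 tested sheddases and transcription factors of uptake genes, *Pparg* alone was called. *Pparg*, a nuclear receptor that controls bridging protein and lipid uptake genes, had 18.0, 15.9 and 23.0 CPM in sEH-/- and 24.4, 36.8 and 34.8 CPM in wild-type libraries (log2 fold change -0.77, SE 0.19, edgeR adjusted p = 0.0483). The sEH-/- libraries lay just below the wild-type, and the adjusted p was above 0.05 in 9 of 17 alternatives, up to 0.224 without wild-type replicate 2. The sheddase genes *Adam17* and *Adam10* had log2 fold changes of 0.30 (SE 0.10, edgeR adjusted p = 0.104) and 0.08 (SE 0.08), respectively.

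The remaining 4 lists had 0 called genes in edgeR, DESeq2 and limma-voom. Among 6 tested genes of the CD300 family, 3 had an unadjusted p below 0.05 (23.4% over all genes), and the most abundant, *Cd300lf*, *Cd300ld* and *Cd300lb*, had log2 fold changes of 0.08 (SE 0.09), 0.28 (SE 0.12) and 0.13 (SE 0.10). Among 8 uptake inhibitors and phosphatases, 3 had such a p, and the don't-eat-me pair *Cd47* and *Sirpa* had 0.24 (SE 0.09) and 0.19 (SE 0.11), with the lipid phosphatase *Inpp5d* at 0.20 (SE 0.08). Among 21 genes of phagosome maturation and digestion, 2 had such a p and the median was -0.001, with *Npc1* at -0.10 (SE 0.09), *Lamp2* at 0.10 (SE 0.10) and *Lipa* at -0.03 (SE 0.12). Among 5 TAM feedback regulators, 2 had such a p. *Ifnar1* and *Ifnar2*, the interferon receptor chains through which TAM kinases restrain cytokine signals, had 0.14 (SE 0.08) and 0.17 (SE 0.10).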

How the data were processed

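The 6 libraries were made from M2c macrophages, 3 for each genotype. The authors deposited raw counts per gene. According to the methods and the submitters' processing notes, reads were trimmed (Trimmomatic 0.39) and mapped to mm10 (STAR). Duplicates (Picard) and reads that were ribosomal, mitochondrial or mapped to several places were then removed, and featureCounts assigned the rest to exons by strand. Labels and methods differ on the library kit and the time of the M1 step.

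Here, counts were normalized by TMM and tested with edgeR 4.0.16 (R 4.3.3, quasi-likelihood test, Benjamini-Hochberg adjustment), instead of DESeq2 as in the study, for 13785 genes with a mean above 5 counts. CPM use TMM-normalized totals. A call required an adjusted p below 0.05 and a change over 1.5-fold. P-values measure the spread between 3 mice per genotype. Exonic lengths were from GENCODE M21 (19286 of 19309 genes matched). Single ratios were compared by exact permutation tests. Alternatives were DESeq2 1.42.0, limma-voom (limma 3.58.1), RLE factors, totals without TMM, other count filters, thinning, a replicate block, a ceiling correction, the library total as covariate, leaving out each library and no fold threshold. Scripts were tested on simulated counts. The 8 genes, the lists and these choices were made with earlier results of these data known. Genes named are the 8, *Ephx2*, called genes and the 3 with the most counts in each list, and the 3 most like *Stab1* and *Gas6*, the genes with the highest and lowest log2 fold change. A few others are marked in the text as chosen after their values were seen. Some genes that this rule names are not reported here. Totals of 4400197 to 6096440 counts limit the precision for low transcripts. Libraries of a genotype differed by more than sampling noise (chi-square per degree of freedom 2.24 to 4.89).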

Additional observations from a re-analysis of the deposited data

How the results depend on the processing

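Among the 8 genes and their ratios and counts, most values kept their direction and side of the threshold under the alternatives. *Mertk*, *Axl* and *Mfge8* had positive log2 fold changes with adjusted p above 0.05 in each of 17 alternatives (ranges 0.08 to 0.25, 0.10 to 0.28 and 0.03 to 0.22). *Stab1* passed the adjusted p threshold with DESeq2 (log2 fold change 0.46) and with no filter (0.45). *Cd300a* had 0.0036 with at least 10 counts required in every library. Leaving out 1 library at a time gave log2 fold changes of -0.54 to -0.43 for *Gas6*, -0.17 to 0.16 for *Pros1*, 0.32 to 0.58 for *Stab1*, -0.072 to 0.064 for *Cd300a*, 0.25 to 0.38 for *Elmo1*, -0.027 to 0.20 for *Cd36*, -0.10 to 0.03 for *Calr* and -0.14 to 0.077 for *Lipa*, and *Cd36* was at -0.017 with the library total as a covariate. The cause of these shifts was not tested.

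Without the fold threshold, 1 of the 8 genes (*Gas6*) and 553 of all tested genes passed, instead of 0 and 360. With the library total as a covariate, 3 other clearance genes and 171 of all genes were called. Leaving out 1 library gave 0 to 11 other clearance genes and 6 to 625 of all genes, with the lowest counts without wild-type replicate 2 (25 of all genes) and wild-type replicate 3 (6), and 96 without sEH-/- replicate 2. Replicate numbers gave no sign of pairing, as deviations of same-numbered libraries from the genotype means correlated at -0.082, -0.26 and -0.037. Because each mean is taken over only 3 libraries, these values cannot exclude that samples were paired. The fit with a replicate block called 234 genes, of which 226 were among the 360, and gave *Gas6* an adjusted p of 0.035 (edgeR), with 0 of the 8 genes called. Transcripts under a few CPM, such as *Stab2*, are limited by depth, and *Mertk*, *Axl* and *Mfge8* by counts that hardly followed the library totals. Some abundant genes of the lists share the latter limit. Slopes of log2 count on log2 total were 0.14 for *Thbs1*, -0.05 for *C3*, 0.2 for *Cd36* and *Itgb2*, and 0.18 for *Tgm2* and *Lipa*. Those of *Lrp1* and *Npc1* were higher, at 0.56 and 0.78.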

Other observations

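*Stab2*, the paralogue of *Stab1* and a phosphatidylserine receptor of sinusoidal endothelium, was a rare transcript in these cells and was singled out after its values were seen. Its raw counts were 11, 26 and 22 in sEH-/- against 8, 4 and 8 in wild-type cells, or 1.88, 5.25 and 5.1 CPM against 1.76, 0.649 and 1.43 CPM. Every sEH-/- library lay above every wild-type library, as for *Stab1*, although the lowest of the former and the highest of the latter differed little. The log2 fold change was 1.67 (SE 0.49, edgeR adjusted p = 0.0771), with 1.32 to 2.04 over the alternatives. *Cd300e*, an activating member of the family of *Cd300a* that was likewise chosen after its values were seen, had raw counts of 19, 8 and 1 in sEH-/- against 0, 3 and 2 in wild-type libraries, which overlapped.

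Motif matches in the promoter windows of the other 5 genes were 3 GC boxes for *Mertk*, 1 GC box and 1 PU.1 core for *Axl*, 5 GC boxes for *Pros1*, 4 GC boxes and 1 PU.1 core for *Mfge8*, and 1 PU.1 core and 1 CAGA box for *Cd300a*. GC boxes were absent from the windows of *Stab1* and *Cd300a*. *Elmo1* had a second RefSeq start, whose window (chr13:20472740-20472989) held no GC box and none of the other motifs examined. The AP-1 site (TGACTCA), the binding hexamer of nuclear receptors (AGGTCA) and an interferon response element matched none of the 9 windows, and they were found in 4.46%, 14.0% and 2.98% of all promoter windows.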
